A study of Mus musculus with 24 samples.

Results

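Arginine is split by arginase into urea and ornithine, and ornithine is the starting point of the polyamines putrescine, spermidine and spermine. A set of 10 genes around these steps was followed in mouse prostate organoids: Arg1, Arg2, Ass1 and Oat on the arginine and ornithine side, Odc1, Azin1, Amd1, Srm and Sms in polyamine synthesis, and Sat1 in polyamine breakdown. The genes were chosen by symbol out of 54838 in the expression table, with earlier results of the same libraries known, so their values are given as a description, with no p-value, and calls from the tests over all genes are given for them as counts beside the share of all genes called. Each symbol had its own row, and all 10 were among the 12899 genes tested, that is, genes with at least 1 FPKM in at least 5 of 20 libraries. FPKM are fragment numbers divided by transcript length and by the fragment total of the library, so levels of different genes can be set beside each other per length.

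The organoids were epithelial cultures of mouse ventral prostate, taken at 4 months of age and seeded at 3000 cells in each 30 µL dome of Matrigel, a gel of basement membrane proteins. Control organoids had the genotype Tmprss2-fl/fl-ERG and T-ERG organoids the genotype Tmprss2-ERG; since both names hold Tmprss2 and ERG, control is not described as free of either. Each genotype was represented by 2 organoid clones, labelled as biological replicates, and each clone by 5 domes, labelled as technical replicates, with 1 RNA library per dome. The labels do not say whether clones of the same genotype had different mice as their source, so a difference between genotypes rests on 2 against 2 clones, and any p-value measures the spread between these clones or domes.

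In the urea cycle, Ass1 joins citrulline and aspartate to the precursor of arginine, and the arginases Arg1, of the cytosol, and Arg2, of the mitochondria, release urea. Oat links ornithine with glutamate and proline. Odc1 turns ornithine into putrescine and is the gene of the pathway best known as a target of the transcription factor MYC; its protein is broken down with the help of antizymes, which the antizyme inhibitor Azin1 binds. Amd1 makes the aminopropyl donor from S-adenosylmethionine, Srm uses it to make spermidine, Sms uses it to make spermine, and Sat1 acetylates spermidine and spermine for export or oxidation. Prostate epithelium is known for secreting polyamines, spermine above all, into seminal fluid.

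On GRCm38.p6, the assembly of mm10, Arg1 (ENSMUSG00000019987) lies at chr10:24915207-24927470, Arg2 (ENSMUSG00000021125) at chr12:79130788-79156301, Ass1 (ENSMUSG00000076441) at chr2:31470270-31520670 and Oat (ENSMUSG00000030934) at chr7:132557475-132576398. Odc1 (ENSMUSG00000011179) lies at chr12:17544808-17551502, Azin1 (ENSMUSG00000037458) at chr15:38487430-38519294, Amd1 (ENSMUSG00000075232) at chr10:40287458-40302188 and Srm (ENSMUSG00000006442) at chr4:148591513-148594619. Sms (ENSMUSG00000071708) and Sat1 (ENSMUSG00000025283) are both on the X chromosome, at chrX:157443851-157492287 and chrX:155213126-155216449.

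Promoter windows of 300 bases, 250 before to 50 after a transcript start, were held by the RefSeq table of GRCm38.p6 for 6 of the 10 genes, while Arg1, Arg2, Azin1 and Srm had no entry. They were searched for CACGTG, the core of the E-box to which MYC and its partners bind, which reads the same on both strands, and for CCGGAAGT, a form of the ETS motif bound by ERG and its relatives, on both strands (ACTTCCGG on the other). CACGTG occurred in 7.15% of all 32851 windows in the table and CCGGAAGT in 3.89%, and the motifs do not overlap each other in the windows shown. The stretches before the start are given for Ass1 and Odc1, because their levels differed most between clones among the genes with a window, and for Sms, whose window holds both motifs; capitals mark the motif matches.
Ass1, plus strand, chr2:31470020-31470269: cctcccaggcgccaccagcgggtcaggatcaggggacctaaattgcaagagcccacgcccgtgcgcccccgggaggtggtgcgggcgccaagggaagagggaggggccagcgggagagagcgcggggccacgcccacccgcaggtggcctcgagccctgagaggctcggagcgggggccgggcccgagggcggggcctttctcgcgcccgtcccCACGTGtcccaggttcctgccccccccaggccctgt
Odc1, plus strand, chr12:17544623-17544807: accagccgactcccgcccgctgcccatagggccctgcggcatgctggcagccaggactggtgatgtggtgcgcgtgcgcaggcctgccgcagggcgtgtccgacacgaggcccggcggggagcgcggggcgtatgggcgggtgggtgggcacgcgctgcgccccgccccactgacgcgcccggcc
Sms, minus strand, chrX:157492288-157492537: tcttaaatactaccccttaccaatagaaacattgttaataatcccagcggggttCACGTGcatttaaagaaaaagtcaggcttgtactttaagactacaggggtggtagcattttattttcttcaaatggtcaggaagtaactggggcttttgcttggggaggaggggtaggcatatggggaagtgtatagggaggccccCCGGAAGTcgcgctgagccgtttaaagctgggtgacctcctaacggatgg
The Ass1 window held 1 CACGTG, beginning at position -36 relative to the start. The Sms window held 1 CACGTG, at -196, and 1 CCGGAAGT, at -50. The 300-base Odc1 window had neither set of letters, nor had those of Oat, Amd1 and Sat1 or a second window of Sms, and 185 bases of the Odc1 window are shown because another transcript start of the gene follows them. A match in a window is a description of its letters and was not tested against binding.

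The libraries had FPKM sums of 728255 to 794589 and 14621 to 15457 genes above 0. Read counts are not part of the files, and the depth is therefore unknown. Mouse Erg was low in all 20 libraries, at 0.32 to 3.17 FPKM, and did not separate the genotypes (log2 difference 0.08 ± 0.28, SE, limma adjusted p = 0.925), although leaving out single clones turned its sign. The labels do not say which ERG sequence the allele carries, so these values may not count its transcripts. Tmprss2 had clone means of 101 and 95.3 FPKM in control and of 49.1 and 38.3 FPKM in T-ERG. Its log2 difference of -1.17 ± 0.18 by genotype was not called (limma adjusted p = 0.506). Rad21, named in the title of the series, lay between 49.4 and 55.1 FPKM in all 4 clones. Epithelial markers were plentiful, with the basal keratin Krt5 at clone means of 5222 to 9800 FPKM, whereas the luminal prostate marker Pbsn was absent, at 0 in all libraries. The leukocyte marker Ptprc and the macrophage marker Adgre1 were at 0 in all 20 libraries, as were the endothelial markers Cdh5 and Kdr.

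**Figure D1:**
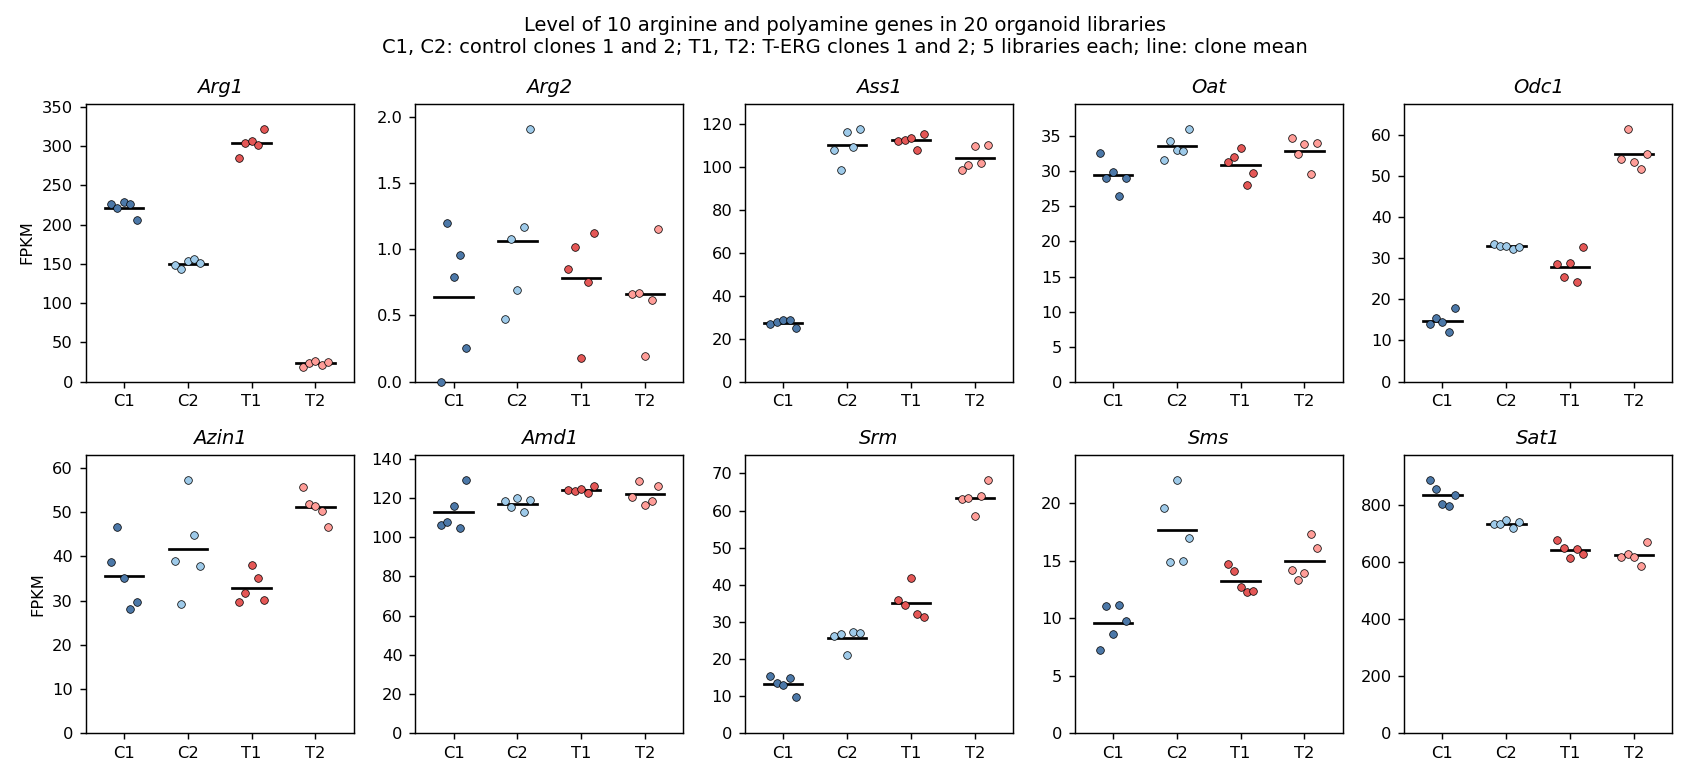
Level of each of the 10 genes in FPKM (linear vertical axes from 0, a separate scale per gene) in the 5 libraries of each clone; points are libraries, horizontal bars clone means, C1 and C2 the control clones and T1 and T2 the T-ERG clones. Arg1 sits between 18.8 and 25.8 FPKM in T-ERG clone 2 and at 143 FPKM or more in every other clone, Ass1 at 25.1 to 28.6 FPKM in control clone 1 and at 98.6 FPKM or more in the others, and Oat and Amd1 stay nearly level.

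Arg1, the cytosolic arginase, was among the more abundant transcripts of these epithelial cultures, with a mean of 175 FPKM over the 20 libraries, which exceeded 95.6% of tested genes. It differed most of all 10 genes between clones. In control, Arg1 stood at 226, 221, 228, 227 and 205 FPKM in clone 1 and at 148, 143, 154, 156 and 151 FPKM in clone 2 (values here and below are in the order of the replicate numbers). In T-ERG, it stood at 284, 303, 307, 302 and 322 FPKM in clone 1 and at 18.8, 24.1, 25.8, 21.4 and 25.0 FPKM in clone 2, whose first 2 libraries carry no replicate number of their own. The 4 clones did not overlap, in the order T-ERG clone 1, control clone 1, control clone 2 and T-ERG clone 2, and the T-ERG clones held both the highest and the lowest Arg1 levels of the series.

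Mean Arg1 was 304 ± 13.4 FPKM (SD, n = 5 domes) in T-ERG clone 1 and 23.0 ± 2.88 FPKM in T-ERG clone 2, a ratio of 13.2 and a log2 difference of -3.67 ± 0.08 (SE). Control clones had 222 ± 9.33 and 150.3 ± 4.98 FPKM, a log2 difference of -0.56 ± 0.04 between clone 2 and clone 1. Set by genotype, the Arg1 difference of -1.10 ± 1.22 was smaller than its own error, and it turned to 0.73 when T-ERG clone 2 was left out and to -2.94 when T-ERG clone 1 was left out. Arg1 is also known as a marker of some macrophages; the summed level of 7 leukocyte and macrophage markers was 2.20 to 4.35 FPKM in the libraries of T-ERG clone 1, 4.34 to 6.05 in control clone 1, 5.60 to 12.3 in control clone 2 and 0.67 to 5.89 in T-ERG clone 2. Ptprc and Adgre1 were at 0 throughout, and Cd68 was the one of these markers that passed the filter on low values. The summed level of 6 fibroblast markers was 4.03 to 5.26 FPKM in T-ERG clone 1, 2.30 to 3.56 in control clone 1, 0.43 to 1.56 in control clone 2 and 0.54 to 1.41 in T-ERG clone 2, so its clone means stood in the order of those of Arg1. Of these, Col1a2 was at 0 in all libraries, and Dcn, the one that passed the filter, had clone means of 3.98 and 0.65 FPKM in T-ERG and of 2.80 and 0.34 FPKM in control. It was lower in clone 2 of both genotypes, by a log2 difference of -1.62 in T-ERG and of -1.51 in control. Dcn would not have passed the filter without the clone 1 libraries, where it was high, so no p-value is given for it. The part of either marker list in the Arg1 levels was not tested. In bulk libraries, fewer cells with a transcript and less of it per cell cannot be told apart.

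The mitochondrial arginase Arg2 was near the floor of the table. It reached 1 FPKM in 7 libraries, ranged from 0 to 1.91 FPKM, and its clone means were 0.64 and 1.06 FPKM in control and 0.78 and 0.66 FPKM in T-ERG. All pairs of clones overlapped. Per length, Arg1 exceeded Arg2 in every library, also in T-ERG clone 2, where Arg1 was lowest.

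Ass1, argininosuccinate synthase, showed 1 clone apart from the other 3, and it was a control clone. In control, Ass1 was at 26.7, 27.6, 28.6, 28.6 and 25.1 FPKM in clone 1 and at 108, 98.6, 116, 109 and 118 FPKM in clone 2. In T-ERG, it was at 112, 112, 113, 108 and 115 FPKM in clone 1 and at 98.5, 101, 109.8, 102 and 110.3 FPKM in clone 2. Control clone 1 lay below all other libraries, and the other 3 clones overlapped one another. The mean of control clone 2, 109.9 ± 7.62 FPKM (SD, n = 5), was 4.02 times that of control clone 1, 27.3 ± 1.49 FPKM, a log2 difference of 1.97 ± 0.06 (SE), while the T-ERG clones differed by -0.11 ± 0.04. The log2 difference by genotype, 0.96 ± 0.66, fell to -0.02 without control clone 1. In the Ass1 promoter shown above, CACGTG lies near the start, and Myc itself had clone means of 36.4 FPKM in control clone 1, 55.6 in control clone 2, 67.4 in T-ERG clone 1 and 73.5 in T-ERG clone 2; whether the letters and the level are related was not tested.

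Oat, which moves ornithine towards glutamate and proline, varied little. Its libraries ranged from 26.5 to 36.1 FPKM, a ratio of 1.36 between the highest and the lowest, and its clone means were 29.5 and 33.6 FPKM in control and 30.9 and 33.0 FPKM in T-ERG. Every pair of clones overlapped. The genotype difference of Oat was 0.02 ± 0.16 log2 units.

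Odc1, ornithine decarboxylase, differed between the clones within each genotype by about as much as its 2 genotypes differed. Its libraries had 13.98, 15.5, 14.4, 12.2 and 17.8 FPKM in control clone 1 and 33.5, 32.9, 33.1, 32.2 and 32.7 FPKM in control clone 2. They had 28.7, 25.4, 28.8, 24.2 and 32.7 FPKM in T-ERG clone 1 and 54.1, 61.5, 53.4, 51.8 and 55.5 FPKM in T-ERG clone 2. Control clone 1 was lowest and T-ERG clone 2 highest, each without overlap, while control clone 2 and T-ERG clone 1 overlapped. The clone means were 14.8 ± 2.09, 32.9 ± 0.48, 28.0 ± 3.35 and 55.3 ± 3.72 FPKM (SD, n = 5 each) in the order control clone 1, control clone 2, T-ERG clone 1 and T-ERG clone 2. Clone 2 exceeded clone 1 by 1.12 ± 0.09 log2 units in control and by 0.96 ± 0.08 in T-ERG (SE), and T-ERG exceeded control by 0.80 ± 0.50, or by 0.25 when control clone 1 was left out.

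The proliferation marker Mki67 had clone means of 7.90, 16.3, 13.2 and 31.6 FPKM in the same order of clones, and the summed level of 14 proliferation and MYC family genes ran from 212 to 248 FPKM in control clone 1, from 441 to 457 in control clone 2, from 424 to 455 in T-ERG clone 1 and from 717 to 768 in T-ERG clone 2. Of the 13 of them tested, 12 were higher in control clone 2 than in control clone 1, and 11 were higher and 1, Mycl, lower in T-ERG clone 2 than in T-ERG clone 1, by limma with adjusted p below 0.05. These counts stand beside the 38.3% of all tested genes called between the control clones, 25.1% higher, and the 30.5% called between the T-ERG clones, 17.0% higher. The order of the clones in Mki67 was that of Odc1, whereas Myc was higher in T-ERG clone 1 than in control clone 2. Their part in the levels of Odc1 and Srm was not tested.

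Azin1, the antizyme inhibitor that spares Odc1 protein from breakdown, had 38.7, 46.6, 35.2, 28.1 and 29.6 FPKM in control clone 1 and 39.1, 29.2, 57.3, 44.9 and 37.9 FPKM in control clone 2. In T-ERG, Azin1 had 29.7, 31.7, 38.1, 35.2 and 30.2 FPKM in clone 1 and 55.8, 51.8, 51.4, 50.4 and 46.8 FPKM in clone 2. Libraries of the control clones scattered widely and overlapped each other, while the T-ERG clones were apart. T-ERG clone 2, with a mean of 51.2 ± 3.23 FPKM, exceeded T-ERG clone 1, with 33.0 ± 3.58 FPKM, by 0.62 ± 0.08 log2 units, and the control clones differed by 0.21 ± 0.18. By genotype, the Azin1 difference was 0.11 ± 0.26.

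Amd1, S-adenosylmethionine decarboxylase, was abundant and the most even of the 10 genes. Its 20 libraries lay between 105 and 129 FPKM, a ratio of 1.23, with clone means of 113 and 117 FPKM in control and 124 and 122 FPKM in T-ERG. Both T-ERG means were above both control means, yet the difference of 0.10 ± 0.13 log2 units was within its error, and the libraries of the genotypes overlapped. The near copy Amd2 had 0.81 to 4.18 FPKM, the processed copy Amd-ps3 at most 3.11 FPKM and Amd-ps1 at most 0.43 FPKM, and how reads were divided among these copies and Amd1 was not tested.

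Srm, spermidine synthase, was the gene of the set for which every T-ERG library was above every control library. Control had 15.4, 13.5, 13.1, 14.89 and 9.81 FPKM in clone 1 and 26.1, 26.8, 21.0, 27.2 and 27.0 FPKM in clone 2. T-ERG had 36.0, 34.6, 41.8, 32.1 and 31.3 FPKM in clone 1 and 63.1, 63.2, 58.6, 63.9 and 68.2 FPKM in clone 2. The order was control clone 1, control clone 2, T-ERG clone 1 and T-ERG clone 2, and no neighbours overlapped. The means of 13.3 ± 2.19, 25.6 ± 2.63, 35.2 ± 4.15 and 63.4 ± 3.39 FPKM (SD, n = 5 each) span a ratio of 4.76. T-ERG exceeded control by 1.31 ± 0.43 log2 units (SE, 2 clones each), and by 0.86 to 1.76 with any 1 clone left out. Within genotypes the difference was of like size, 0.90 ± 0.12 between the control clones and 0.84 ± 0.08 between the T-ERG clones, so the gap between genotypes was narrowest between T-ERG clone 1 and control clone 2, whose means had a ratio of 1.37.

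Sms, spermine synthase, did not follow Srm. It had 7.21, 11.1, 8.60, 11.1 and 9.72 FPKM in control clone 1 and 19.6, 14.88, 22, 14.95 and 17.0 FPKM in control clone 2. In T-ERG, Sms had 14.7, 14.1, 12.7, 12.3 and 12.3 FPKM in clone 1 and 14.2, 13.4, 13.9, 17.3 and 16.1 FPKM in clone 2. Control clone 1 was lowest without overlap, control clone 2 had the highest mean, 17.7 ± 3.08 FPKM against 9.55 ± 1.68 FPKM, and the T-ERG clones overlapped at 13.2 ± 1.097 and 14.98 ± 1.68 FPKM. The log2 difference was 0.82 ± 0.14 between the control clones, 0.16 ± 0.09 between the T-ERG clones and 0.11 ± 0.32 by genotype. Sms values are uncertain because the processed copy Sms-ps, at 0 to 8.67 FPKM with a median of 3.48, may have taken or given reads.

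Sat1, the spermidine and spermine acetyltransferase that starts polyamine breakdown, was the most abundant of the 10 genes, with a mean of 710.1 FPKM, above 98.6% of tested genes. In control it had 888, 857, 804, 798 and 836 FPKM in clone 1 and 734, 734, 747, 722 and 741 FPKM in clone 2. In T-ERG it had 679, 649, 613, 646 and 630.2 FPKM in clone 1 and 617, 629, 619.8, 587 and 671 FPKM in clone 2. Every T-ERG library lay below every control library, control clone 1 was above control clone 2, and the T-ERG clones overlapped. Clone means were 837 ± 37.3 and 735 ± 9.49 FPKM in control and 644 ± 24.5 and 625 ± 30.5 FPKM in T-ERG. The genotype difference was small in size, -0.31 ± 0.13 log2 units, and lay between -0.40 and -0.21 with any 1 clone left out.

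**Figure D2:**
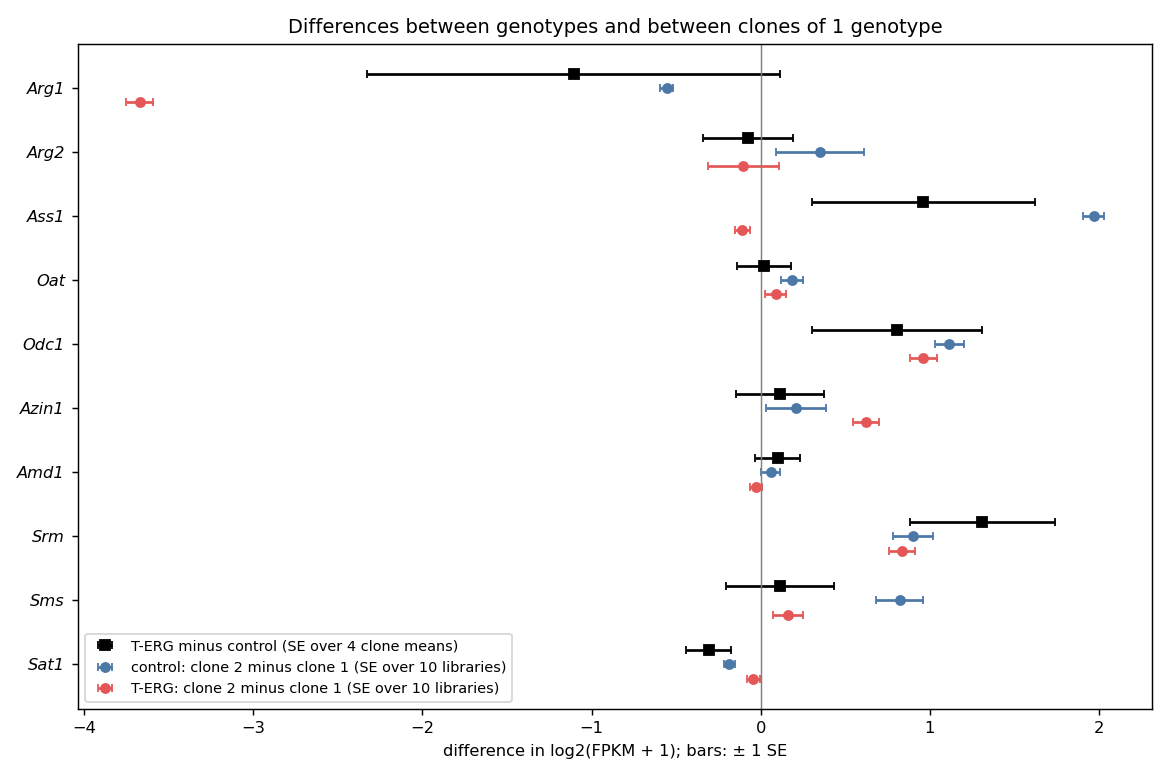
Differences of the 10 genes on the log2(FPKM + 1) scale for T-ERG minus control (4 clone means) and for clone 2 minus clone 1 within control and within T-ERG (5 libraries each); points are differences and bars standard errors. Arg1 between the T-ERG clones, at -3.67, and Ass1 between the control clones, at 1.97, are the points farthest from 0, and Srm is above 0 in all 3 comparisons.

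Over the whole table, limma on 4 clone means called no gene between the genotypes: 0% of 12899 genes passed an adjusted p of 0.05, the lowest being 0.281, and 8.44% had an unadjusted p below 0.05. None of the 10 genes was called. Srm was thus the 1 gene of the set whose T-ERG libraries were all above control, against a background of 2.50% of tested genes, and Sat1 the 1 whose T-ERG libraries were all below, against 3.70%. By clone means, Amd1 and Srm were above in T-ERG and Sat1 below, where 21.7% and 23.2% of tested genes were so placed.

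Between the control clones, 7 of the 10 genes were called, Ass1, Oat, Odc1, Srm and Sms higher in clone 2 and Arg1 and Sat1 lower, where 38.3% of all tested genes were called, 25.1% higher and 13.2% lower. Between the T-ERG clones, 4 were called, Odc1, Azin1 and Srm higher in clone 2 and Arg1 lower, where 30.5% of tested genes were called, 17.0% higher and 13.5% lower. The 2 groups of 5 libraries did not overlap for 6 of the 10 genes in control and for 4 in T-ERG, against 29.1% and 23.2% of tested genes. The median difference of the 10 genes was 0.28 log2 units between the control clones, where that of all tested genes was 0.10, and 0.03 between the T-ERG clones, where it was 0.03. Of all calls between the control clones, 65.5% were higher in clone 2, but 50.6% after quantile normalization and 51.1% after centring each library on its median. The call for Oat was lost under both scalings and the log2 difference of Amd1 turned below 0 under both, from 0.06 to -0.04 under the first, while Odc1, Srm, Sms, Ass1, Arg1 and Sat1 kept their calls.

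**Figure D3:**
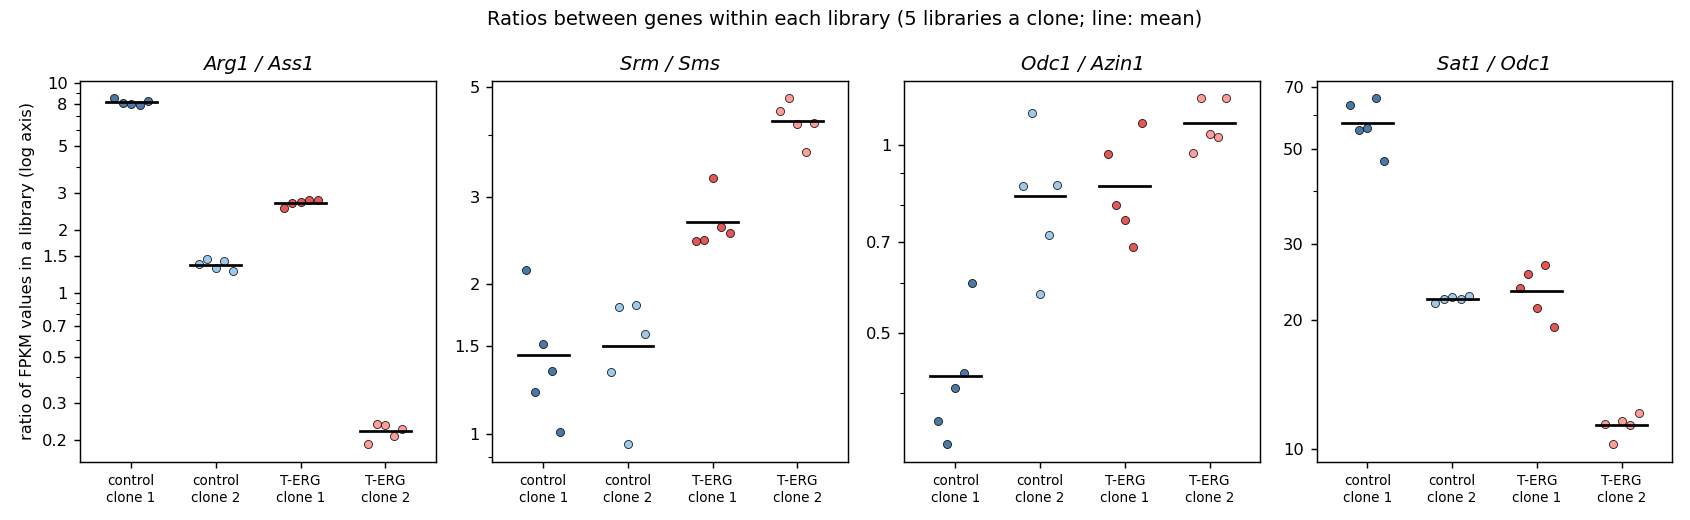
Ratios of FPKM within each library for 4 pairs of genes along the pathway (logarithmic vertical axes); points are libraries, grouped by clone, and horizontal bars their means. Arg1 over Ass1 runs from about 8.12 in control clone 1 to 0.221 in T-ERG clone 2, and Sat1 over Odc1 from 57.5 to 11.3 in the same clones.

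Ratios within a library set the steps of the pathway against each other without the scaling of the library. The ratio of Arg1 to Ass1, the enzyme that uses arginine to that which renews it, was 8.12 ± 0.23 (SD, n = 5) in control clone 1, 1.37 ± 0.07 in control clone 2, 2.70 ± 0.10 in T-ERG clone 1 and 0.221 ± 0.020 in T-ERG clone 2. No clones overlapped, and in T-ERG clone 2 Ass1 exceeded Arg1 in every library. The ratio of Srm to Sms, the enzymes that make spermidine and turn it into spermine, was 1.44 ± 0.43 and 1.5 ± 0.36 in the control clones and 2.67 ± 0.35 and 4.26 ± 0.39 in the T-ERG clones. The control clones overlapped, and every T-ERG library was above every control library.

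The ratio of Odc1 to Azin1 was 0.427 ± 0.105 in control clone 1, 0.829 ± 0.204 in control clone 2, 0.860 ± 0.162 in T-ERG clone 1 and 1.082 ± 0.099 in T-ERG clone 2. Neighbouring clones in that order overlapped. The ratio of Sat1 to Odc1, the first steps of breakdown and of synthesis, was 57.5 ± 7.44 in control clone 1, 22.4 ± 0.30 in control clone 2, 23.3 ± 3.06 in T-ERG clone 1 and 11.3 ± 0.69 in T-ERG clone 2. Control clone 2 and T-ERG clone 1 overlapped in it, as they did in Odc1 itself. These are ratios of transcripts and not of enzyme activity.

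Around the 10 genes, 6 lists of neighbouring steps held 52 symbols, of which 51 were in the table and 37 were tested, and the lists too were drawn up with earlier results of these libraries known. No gene of theirs was called between the genotypes, where 0% of all genes were, and 3 of the 37 had an unadjusted p below 0.05, beside 8.44% of all tested genes. Between the control clones 15 were called, 10 higher and 5 lower in clone 2, and between the T-ERG clones 18, 13 higher and 5 lower, beside the 38.3% and 30.5% called over all tested genes. The median difference of the 37 genes was 0.12 and 0.13 log2 units in these comparisons, beside 0.10 and 0.03 over all tested genes, with which the medians of single lists below are to be read.

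**Figure D4:**
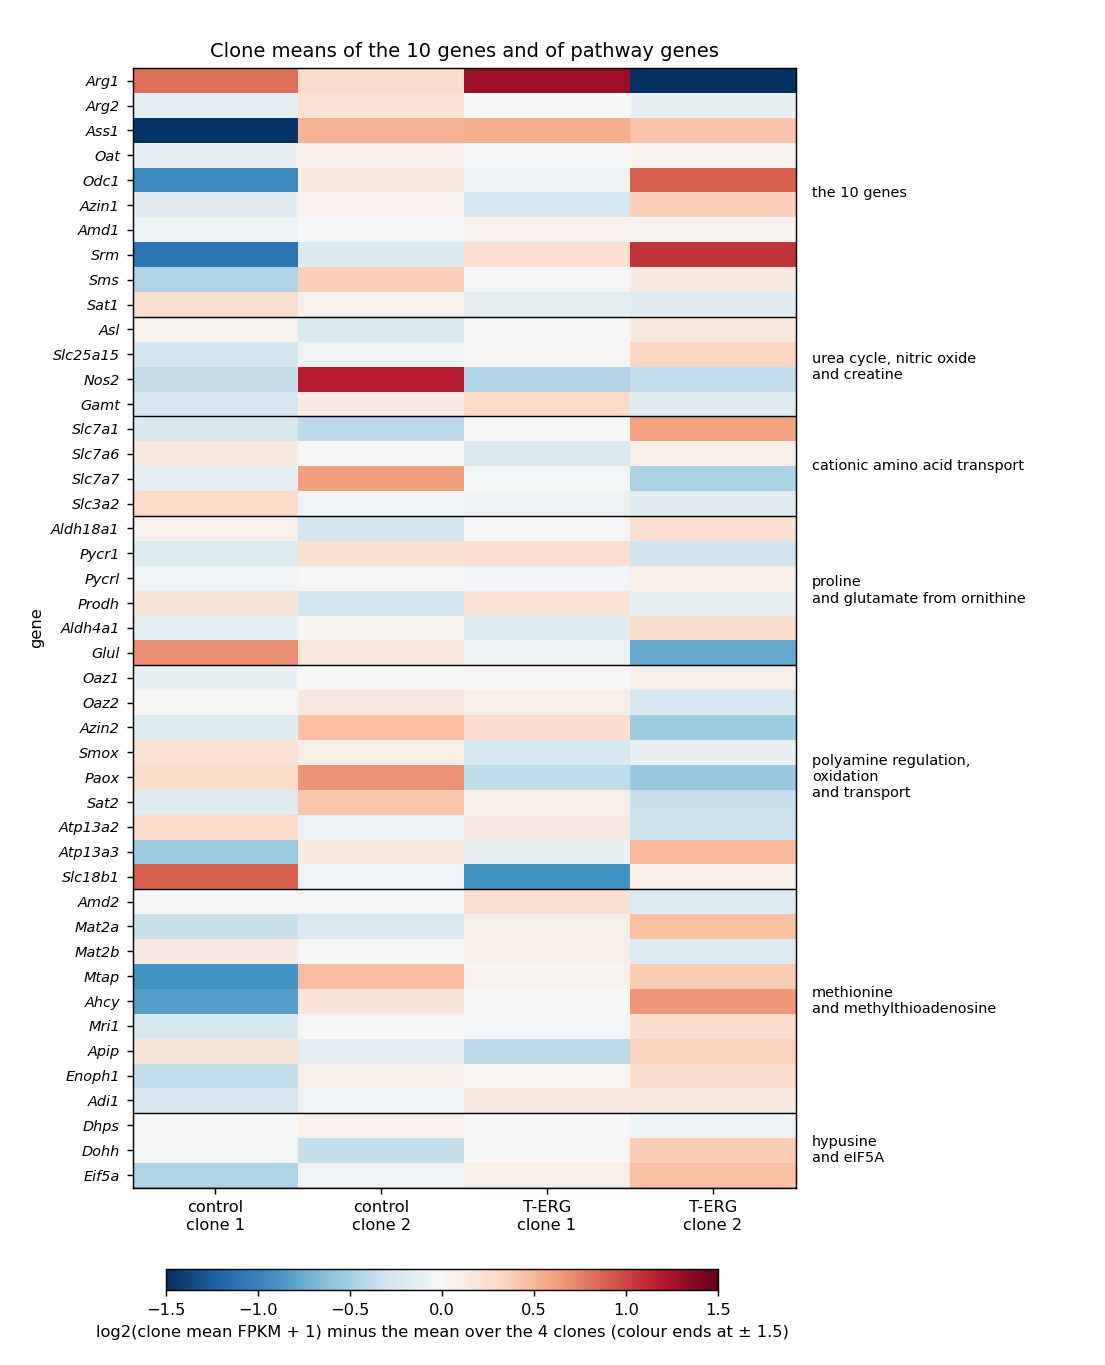
Levels of the 10 genes and of tested genes of the 6 lists in each clone, as log2(FPKM + 1) of the clone means minus the gene's mean over the 4 clones; red is above and blue below that mean, and colours end at 1.5 log2 units. Arg1 is deep blue in T-ERG clone 2 (23.0 FPKM) and deep red in T-ERG clone 1 (304 FPKM), Ass1 is deep blue in control clone 1, and Glul steps down while Srm steps up from control clone 1 to T-ERG clone 2.

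The mitochondrial enzyme genes of the hepatic urea cycle, Cps1 and Otc, were at or near 0, while those of the cytosolic steps, Ass1, Asl and Arg1, were present, as was Slc25a15, the mitochondrial ornithine carrier, at 2.71 to 5.67 FPKM. Of the list of the urea cycle, nitric oxide and creatine, 4 of 12 genes were tested, with median differences of 0.31 between the control clones and 0.16 between the T-ERG clones. Otc, which turns ornithine into citrulline, Gatm, which starts creatine synthesis, and Agmat were at 0 in all 20 libraries. Cps1, which feeds carbamoyl phosphate into the cycle, and Nags did not exceed 0.05 and 0.19 FPKM. Asl, which completes the synthesis of arginine after Ass1, was present at clone means of 36.6 to 47.0 FPKM. Nos2, the inducible nitric oxide synthase that competes with arginase for arginine, had clone means of 0.10 and 2.19 FPKM in control and at most 0.09 FPKM in T-ERG. It passed the filter on low values only through the libraries of control clone 2, where it was high. Its call between the control clones (log2 difference 1.52 ± 0.16, SE) therefore enters the counts only and is no support for a difference. The genotype difference of Nos2, -0.81 ± 0.56, was the largest of the list, rested on the same control clone and was not called (limma adjusted p = 0.622). Of the 4 genes, 1 was called between the control clones and none between the T-ERG clones, beside 38.3% and 30.5% of all tested genes. Between the T-ERG clones Gamt, the last enzyme of creatine synthesis, had the largest difference, -0.36 ± 0.37 (limma adjusted p = 0.51).

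Of the carriers of arginine and other cationic amino acids, 4 of 6 were tested, with median differences of -0.15 between the control clones and 0.08 between the T-ERG clones, and 1 was called in each. Of all tested genes, 38.3% were called between the control clones and 30.5% between the T-ERG clones. Slc7a1, the main arginine importer of many cells, was called between the T-ERG clones, with clone means of 15.6 and 24.2 FPKM (log2 difference 0.60 ± 0.08, limma adjusted p = 0.000138), and had 13.1 and 11.6 FPKM in the control clones. Its genotype difference of 0.62 ± 0.26 was the largest of the list and was not called (limma adjusted p = 0.574). Slc3a2, the heavy chain that carries several of these transporters to the membrane, was lower in control clone 2 than in control clone 1, at 103 against 130.1 FPKM (-0.33 ± 0.06, limma adjusted p = 0.00126).

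All 8 listed genes of proline and glutamate metabolism in the table were tested, with Pycr3 under its older symbol Pycrl. Glul, glutamine synthetase, fell in both clone comparisons, with clone means of 209 and 144 FPKM in control (-0.53 ± 0.03, limma adjusted p = 8.09e-08) and of 123 and 75.7 FPKM in T-ERG (-0.69 ± 0.04, limma adjusted p = 4.54e-07). Its genotype difference of -0.84 ± 0.31 was not called (limma adjusted p = 0.574). In control clone 2, Aldh18a1, which makes pyrroline-5-carboxylate from glutamate, was lower (-0.33 ± 0.09, limma adjusted p = 0.0136). In T-ERG clone 2, Aldh4a1, which oxidizes pyrroline-5-carboxylate to glutamate, was higher by 0.44 ± 0.10 (limma adjusted p = 0.0086). Of the 8 genes, 4 were called in each clone comparison, beside 38.3% and 30.5% of all tested genes, 2 higher and 2 lower in control clone 2 and 3 higher and 1 lower in T-ERG clone 2, with median differences of 0.13 and 0.20.

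Of the regulators, oxidases and carriers of polyamines, 9 of 11 were tested. Called were 3 higher and 1 lower in control clone 2 and 2 higher and 3 lower in T-ERG clone 2, with median differences of 0.12 and -0.19. Shares over all tested genes were 38.3% called in control (25.1% higher, 13.2% lower) and 30.5% in T-ERG (17.0% higher, 13.5% lower). The antizyme gene Oaz1, whose product leads Odc1 protein to breakdown, was far more abundant than Odc1, at clone means of 519 to 584 FPKM, and the spermine oxidase gene Smox had 83.7 to 115 FPKM. Atp13a3, a polyamine importer, rose in clone 2 of both genotypes, by 0.73 ± 0.12 in control (limma adjusted p = 0.000561) and by 0.60 ± 0.08 in T-ERG (limma adjusted p = 0.000251). Atp13a2, which exports polyamines from lysosomes, fell in clone 2 of both, with log2 differences of -0.36 ± 0.12 in control (limma adjusted p = 0.0343) and -0.45 ± 0.13 in T-ERG (limma adjusted p = 0.0204). Its call in control was lost without the filter on low values and with control replicate 1, 2, 4, 6, 7 or 9 left out. The call in T-ERG was lost without T-ERG replicate 4. Azin2, a relative of Azin1, was higher in control clone 2 by 0.64 ± 0.21 (limma adjusted p = 0.0291) and lower in T-ERG clone 2 (-0.83 ± 0.17, limma adjusted p = 0.00327). Its control call was lost under quantile normalization, under median centring and without the filter on low values. Leaving out control replicate 1, 2, 4, 8 or 10 also removed that call. Slc18b1, a vesicular polyamine carrier, was higher in T-ERG clone 2 than in T-ERG clone 1, at 3.04 against 1.01 FPKM (1.01 ± 0.22, limma adjusted p = 0.00546). Paox, which oxidizes the acetylated polyamines that Sat1 makes, had 23.2 and 31.2 FPKM in control and 14.4 and 12.6 FPKM in T-ERG; its genotype difference of -0.96 ± 0.21 was the largest of the list and was not called (limma adjusted p = 0.574).

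Synthesis of spermidine and spermine leaves methylthioadenosine, which Mtap and later enzymes return to methionine. Of this list, 9 of 10 genes were tested, 3 were higher and none lower in control clone 2, and 5 were higher and 1 lower in T-ERG clone 2, with median differences of 0.19 and 0.30. Over all tested genes, 38.3% were called between the control clones (25.1% higher, 13.2% lower) and 30.5% between the T-ERG clones (17.0% higher, 13.5% lower). Mtap had clone means of 21.4 and 56.7 FPKM in control (1.37 ± 0.05, limma adjusted p = 2.27e-09) and of 42.3 and 53.6 FPKM in T-ERG, so control clone 1 was lowest, as in Ass1. Ahcy, which clears S-adenosylhomocysteine, rose in clone 2 by 0.99 ± 0.14 in control (limma adjusted p = 0.000236) and by 0.65 ± 0.12 in T-ERG (limma adjusted p = 0.00199), and its genotype difference of 0.66 ± 0.41 was not called (limma adjusted p = 0.602). In T-ERG clone 2, Apip, of the methionine salvage pathway, was higher by 0.70 ± 0.15 (limma adjusted p = 0.00466) and Mat2b, the regulatory subunit of S-adenosylmethionine synthetase, lower (-0.27 ± 0.09, limma adjusted p = 0.0345). The Mat2b call was lost without the filter on low values, without the 2 unnumbered libraries and with some single T-ERG libraries left out.

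Spermidine also supplies the hypusine residue of the translation factor eIF5A. Eif5a, at clone means of 544 and 724 FPKM in control and 800.4 and 1018 FPKM in T-ERG, rose in clone 2 by 0.41 ± 0.03 in control (limma adjusted p = 8.68e-07) and by 0.35 ± 0.04 in T-ERG (limma adjusted p = 4.56e-05). Its clone means stood in the order of those of Srm, and its genotype difference of 0.52 ± 0.21 was not called (limma adjusted p = 0.574). Dohh, which completes hypusine, fell in control clone 2 (-0.34 ± 0.08, limma adjusted p = 0.0065) and rose in T-ERG clone 2 by 0.37 ± 0.08 (limma adjusted p = 0.00614), and Dhps, which starts it, was called in neither. The 3 genes tested had median differences of 0.06 between the control clones and 0.35 between the T-ERG clones.

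**Figure D5:**
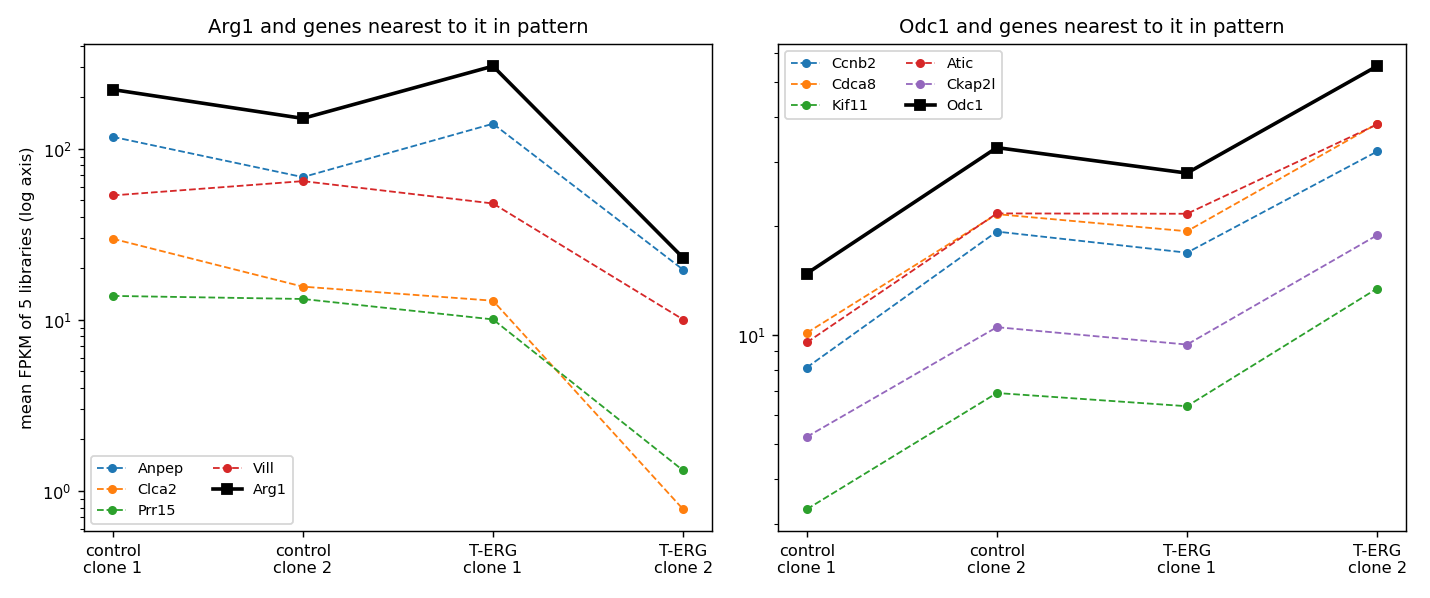
Arg1 and Odc1 (thick lines) with tested genes from among the 5 whose patterns lay nearest to each (dashed), as the mean FPKM of the 5 libraries of each clone on a logarithmic axis; the horizontal axis lists the clones. Arg1 falls to 23.0 and Anpep to 19.6 FPKM in T-ERG clone 2, and Odc1 and Ccnb2 are lowest in control clone 1, at 14.8 and 8.11 FPKM, and highest in T-ERG clone 2, at 55.3 and 32.1 FPKM.

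The genes nearest in pattern were found for Arg1 and Odc1 by the root mean square difference of log2(FPKM + 1), each gene centred on its own mean, over 20 libraries that fall into 4 clones. For Arg1, whose own values had a root mean square of 1.43 log2 units around the mean, the 5 nearest included Anpep (0.43), Clca2 (0.63), Prr15 (0.63) and Vill (0.65). Anpep, an aminopeptidase of epithelial surfaces, had clone means of 117 and 68.2 FPKM in control and 139.9 and 19.6 FPKM in T-ERG, the same order of clones as Arg1. Vill, a relative of the actin-binding protein villin, was at 53.3 and 64.6 FPKM in control and at 47.8 and 10.04 FPKM in T-ERG. For Odc1, with a root mean square of 0.67, the nearest were Ccnb2 (0.13), Cdca8 (0.14), Kif11 (0.15), Atic (0.16) and Ckap2l (0.16). Ccnb2, a cyclin of mitosis, had 8.11 and 19.3 FPKM in control and 16.8 and 32.1 FPKM in T-ERG. Distances of Odc1 were smaller than those of Arg1 in these units, and likeness here is a description of levels in the same libraries.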

How the data were processed

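The deposited values are log2(FPKM + 1) for mouse Ensembl genes in 20 RNA libraries, 1 column per library; undoing the log gave FPKM of 2 decimals in 100% of cells. Per the submitters' processing notes, RSEM 1.3.0 and DESeq2 were used with build mm10; what each did, and with which aligner and gene models, is not stated there. In 2 T-ERG columns the header repeated a number. The 2 T-ERG samples that no other column names are both of clone 2, so these columns are unnumbered libraries of clone 2. The 4 whole-genome samples were not analysed here.

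Genes with at least 1 FPKM in at least 5 libraries were tested with limma 3.58.1 (R 4.3.3, empirical Bayes with intensity trend, two-sided, Benjamini-Hochberg threshold 0.05): T-ERG minus control on 4 clone means, and clone 2 minus clone 1 on 5 against 5 domes, which are technical replicates. Differences on the log2(FPKM + 1) scale understate changes of low genes. The tests were also run on simulated data with planted changes. The share of these recovered is not reported here, and 0 calls between the genotypes do not show that no gene differs. The 10 genes and the lists were chosen with earlier results of these data known. Beside the 10 genes, the text names per list and comparison the 2 largest called rises and falls, or with none called the largest difference, and genes outside this rule were chosen after their values were seen. Some genes that the rule names are not reported here. Whether clones of the same number in control and T-ERG belong together is unknown, and the main comparison did not pair them. The clone differences of control and T-ERG correlated at 0.168 over 12899 genes, which cannot settle this. Alternatives were other filters, a pseudocount of 0.1, other scalings, no trend, other treatment of clones and leaving out clones or libraries. Gene positions and promoter sequences are from RefSeq on GRCm38.p6, 1-based.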

Additional observations from a re-analysis of the deposited data

Results flagged for a closer look

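Among 40 sets of 5 libraries, 10 genes in 4 clones, 1 held a library far from the rest by Dixon's criterion, and chance gives about 1 in 20 such sets. Srm in the eighth control library, of clone 2, had 20.96 FPKM, while the other 4 libraries of that clone lay between 26.1 and 27.2 FPKM. That value remained above every library of control clone 1 and below every T-ERG library.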

How the results depend on the processing

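The genotype comparison called 0 genes under every filter, scaling, pseudocount and single clone left out, and under the clone number as a replicate block, which also left 0 of the 10 genes and 0 of the list genes called. It called 4737 genes when the 20 libraries were taken as independent samples and 1398 with the clone as a random block; of the 10 genes these were 4 (Ass1, Odc1, Srm and Sat1) and 2 (Srm and Sat1), and of the list genes 14 and 5. Domes of 1 clone are technical replicates, so these fits count the spread between domes as if it were that between clones in part or in whole. Leaving out 1 clone turned the sign for Erg, which ran from -0.12 without T-ERG clone 1 to 0.29 without T-ERG clone 2, and for Rad21, which ran from -0.064 without T-ERG clone 2 to 0.092 without T-ERG clone 1. Between the control clones, Rad21 turned from 0.01 to -0.054 with quantile normalization and to -0.075 with median centring, and ran from -0.016 without control replicate 2 to 0.033 without control replicate 8. Among the 10 genes, leaving out a clone gave genotype differences from -2.94 to 0.73 for Arg1, -0.25 to 0.10 for Arg2, -0.02 to 1.95 for Ass1, -0.07 to 0.11 for Oat, -0.20 to 0.43 for Azin1 and -0.30 to 0.53 for Sms, and kept the sign for Odc1, Amd1, Srm and Sat1. Of the list genes named between the genotypes, none of which was called, Nos2 ran from -1.57 without control clone 1 to -0.053 without control clone 2, Ahcy from 0.16 to 1.15 without the same clones, and Slc7a1 from 0.32 to 0.91 and Glul from -0.50 to -1.19 without T-ERG clone 2 and T-ERG clone 1. Leaving out single libraries gave 4539 to 4820 calls between the control clones, with 6 to 7 of the 10 genes and 13 to 18 list genes, and 3513 to 3797 between the T-ERG clones, with 4 to 5 and 17 to 20. Oat lost its call in 8 of these 10 settings, and without the 2 unnumbered libraries the T-ERG clones gave 3038 calls. Ass1 became called between the T-ERG clones under quantile normalization (-0.13), median centring (-0.15) and without T-ERG replicate 10 (-0.13). The cause was not tested. With no read counts, the precision of low genes such as Arg2 is unknown.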

Other observations

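For the other 8 genes of the set, the single tested gene nearest in pattern over the 20 libraries was Bnc1 for Ass1, at a root mean square difference of 0.14 log2 units, Nolc1 for Srm (0.18), Rhbdd1 for Sat1 (0.08), Fhl3 for Sms (0.17), Cep135 for Azin1 (0.18), Api5 for Amd1 (0.06), Adss for Oat (0.07) and Vps16 for Arg2 (0.25). Around their own means, Ass1, Srm, Sat1 and Sms had root mean squares of 0.85, 0.80, 0.17 and 0.35. Those of Azin1, Amd1, Oat and Arg2 were 0.32, 0.085, 0.11 and 0.36. For Amd1, Oat and Arg2, the distance to the nearest gene was thus a large part of their own spread. Bnc1, a zinc finger protein of basal epithelium, had clone means of 3.68 FPKM in control clone 1, 17.1 in control clone 2 and 14.5 in each T-ERG clone, so like Ass1 it was low in control clone 1. Nolc1, a nucleolar protein of ribosome synthesis, had 17.0 and 34.0 FPKM in the control clones and 42.2 and 73.5 FPKM in the T-ERG clones, the order of Srm.

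The antizyme inhibitor Azin2 moved in opposite directions between the clones of the 2 genotypes, and the difference between these differences was not tested. In control, the libraries of the clones overlapped for Azin2, and its call there was lost in the settings given above. Its clone means were 6.46 and 10.6 FPKM in control and 9.23 and 4.88 FPKM in T-ERG. The ratio of Sat1 to the spermine oxidase gene Smox was nearly the same in all clones, at 7.40 ± 0.98 (SD, n = 5) and 6.99 ± 0.48 in control and 7.72 ± 0.68 and 6.83 ± 0.46 in T-ERG.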
